A study of Mus musculus with 9 samples.

Results

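The genes described here are 7 genes of the major histocompatibility complex (MHC) class II system of the mouse, taken by name from a count table of 54532 gene identifiers. They are the classical class II chains H2-Aa, H2-Ab1 and H2-Eb1, the invariant chain gene Cd74, the peptide exchange genes H2-DMa and H2-DMb1, and the regulator Ciita. All 7 were found once in the table, and all 7 passed the filter on low counts in every comparison. They were measured by RNA sequencing in heart tissue of male C57BL/6J mice, wild-type and 8 to 10 weeks of age, with 3 libraries from separate animals in each of 3 groups. The sham mice underwent thoracotomy with a suture passed under the coronary artery and left untied. In the MIRI group (myocardial ischemia/reperfusion injury) the left anterior descending coronary artery was tied for 30 min and then opened for 24 h of reperfusion. The GXNI group had the same operation and received Guanxinning injection, a Chinese herbal preparation, at 9 mL/kg through the tail vein within 10 min of ischemia, whereas the other mice received saline by that route. The comparisons ask how class II expression differs after ischemia-reperfusion and with GXNI treatment.

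MHC class II molecules are pairs of an alpha and a beta chain that carry peptides from engulfed material to the surface of antigen-presenting cells, where CD4+ T cells read them. The invariant chain, the product of Cd74, escorts new class II molecules and plugs their groove until it is degraded by proteases, and the H2-DM heterodimer then exchanges its last fragment for peptide. Ciita is the coactivator that switches these genes on together. It does not bind DNA itself but docks on the factors RFX, CREB and NF-Y, which sit on the X and Y boxes just upstream of class II genes, and interferon gamma induces it, with IRF1 among the factors at its promoter. In the heart, dendritic cells, B cells and part of the macrophages are the known sources of class II molecules.

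The stretches before RefSeq starts of H2-Eb1, H2-Aa and H2-DMa are shown because they carry the shared box letters, part of them or none of them. For H2-DMa the stretch belongs to the first of 2 RefSeq starts and lies inside the wider GENCODE span of the gene. The sequences are from RefSeq on GRCm38.p6, written 5′ to 3′ on the strand of the gene, each 130 bases long and free of annotated exon bases. Capitals mark the letters of a Y box core (ATTGG) or an X1 box core (AGNAACNG) on the strand of the gene.
H2-Eb1, chr17:34305737-34305866, + strand: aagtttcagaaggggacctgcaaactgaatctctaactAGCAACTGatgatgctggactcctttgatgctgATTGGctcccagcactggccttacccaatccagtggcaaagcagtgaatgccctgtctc
H2-Aa, chr17:34287824-34287953, - strand: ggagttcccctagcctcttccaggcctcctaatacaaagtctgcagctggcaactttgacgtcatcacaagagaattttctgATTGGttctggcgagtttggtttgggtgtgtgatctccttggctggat
H2-DMa, chr17:34122692-34122821, + strand: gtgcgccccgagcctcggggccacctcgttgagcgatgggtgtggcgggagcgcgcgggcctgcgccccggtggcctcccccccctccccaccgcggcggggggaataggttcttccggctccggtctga
In H2-Eb1 the X1 letters begin 92 bases before the start of the gene and the Y letters 33 bases further on. The H2-Eb1 stretch also holds the Y core on the other strand (CCAAT as printed), 35 bases before the start and not in capitals. H2-Aa has the Y letters 48 bases before its start and no X1 letters, and the H2-DMa stretch has neither, whereas the window of the other RefSeq start of H2-DMa, which is not printed, has the Y letters 198 bases before that start. H2-DMb1, whose window is not printed, has both cores, 95 and 61 bases before its RefSeq start. Windows of 300 bases around RefSeq starts (250 before, 50 after) were searched on both strands, and the X1 core followed within 45 bases by the Y core on the same strand was found in 0.566% of 32851 windows, against 37.4% with the Y core on either strand. The table had a window for 4 of the 7 genes and none for H2-Ab1, Cd74 or Ciita. Only exact matches to these cores were searched, so that a box with other letters would not be found. The letters are a description of the sequence and say nothing of binding in these hearts.

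Library totals ranged from 17119454 to 22811295 counts, so that 3 counts corresponded to 0.132 to 0.175 CPM, the count scaled to the size of the library. The labels give the cell type as cardiomyocytes, but the RNA was from heart tissue. Each library held counts of Myh6 (121491 to 306482), the cardiac myosin heavy chain, and of C1qa (823 to 2565), a macrophage complement gene. In such bulk tissue fewer cells of a type and less RNA per cell cannot be told apart. The libraries labelled MIRI 2 and GXNI 3 went against their labels. By Spearman correlation over 15207 genes MIRI 2 was most similar to GXNI 1 (rho = 0.982), whereas MIRI 1 and MIRI 3 were most similar to GXNI 3 (0.986 and 0.987). GXNI 2 was also most similar to MIRI 1 (0.980), and GXNI 1 to sham 1 (0.984). This likeness alone thus does not single out MIRI 2 and GXNI 3. The labels do not give an exchange of MIRI 2 and GXNI 3, but the fold changes tabulated for the study could be recomputed from the deposited counts only with these libraries exchanged, so that each MIRI and GXNI value under the deposited labels carries this doubt. Results for MIRI and GXNI are therefore given with the deposited labels first and then with these libraries exchanged or left out, and the pooled comparison of the 6 ischemia-reperfusion libraries (MIRI and GXNI) with sham does not depend on that exchange.

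The 3 classical chains were lower on average after ischemia-reperfusion, but none of these differences passed the test, and libraries of 1 group lay far apart in sham and in MIRI. H2-Aa (chr17:34282744-34287823, - strand in GRCm38, ENSMUSG00000036594) encodes the alpha chain of the I-A molecule. Its level was 27.1, 61.6 and 39.3 CPM in sham 1 to 3, 21.4, 10.2 and 45.9 CPM in MIRI 1 to 3, and 28.3, 15.5 and 26.0 CPM in GXNI 1 to 3. Sham 2 was the highest library and MIRI 2 the lowest, 6.07-fold apart. MIRI 3 lay above 2 of the 3 sham hearts, and 4 of the 6 ischemia-reperfusion libraries lay below every sham library.

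H2-Ab1 (chr17:34257689-34269419, + strand, ENSMUSG00000073421) encodes the beta chain that pairs with the H2-Aa product. It was counted at 34.5, 68.2 and 53.9 CPM in sham 1 to 3, at 28.7, 14.8 and 64.0 CPM in MIRI 1 to 3, and at 34.2, 20.9 and 32.7 CPM in GXNI 1 to 3. GXNI 1 at 34.2 and sham 1 at 34.5 CPM lay next to each other, and MIRI 3 reached the sham range. H2-Eb1 (chr17:34305867-34316674, + strand, ENSMUSG00000060586), which overlaps Gm20513 on the opposite strand, encodes the beta chain of the I-E molecule. It had 28.2, 65.6 and 43.2 CPM in sham 1 to 3, 20.8, 11.8 and 42.1 CPM in MIRI 1 to 3, and 33.3, 14.9 and 24.8 CPM in GXNI 1 to 3. All 6 ischemia-reperfusion libraries were below the sham median of H2-Eb1, and 4 were below every sham library. The gene of its partner chain, listed as H2-Ea-ps, had 0 counts in all 9 libraries; it is a pseudogene in C57BL/6 mice. Averaged by group, the chains stood at 42.7 ± 17.5 CPM (H2-Aa), 52.2 ± 16.9 CPM (H2-Ab1) and 45.7 ± 18.8 CPM (H2-Eb1) in sham (SD, n = 3). In MIRI they stood at 25.8 ± 18.3, 35.9 ± 25.4 and 24.9 ± 15.6 CPM, and in GXNI at 23.2 ± 6.79, 29.3 ± 7.29 and 24.3 ± 9.18 CPM, in the same order.

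**Figure D1:**
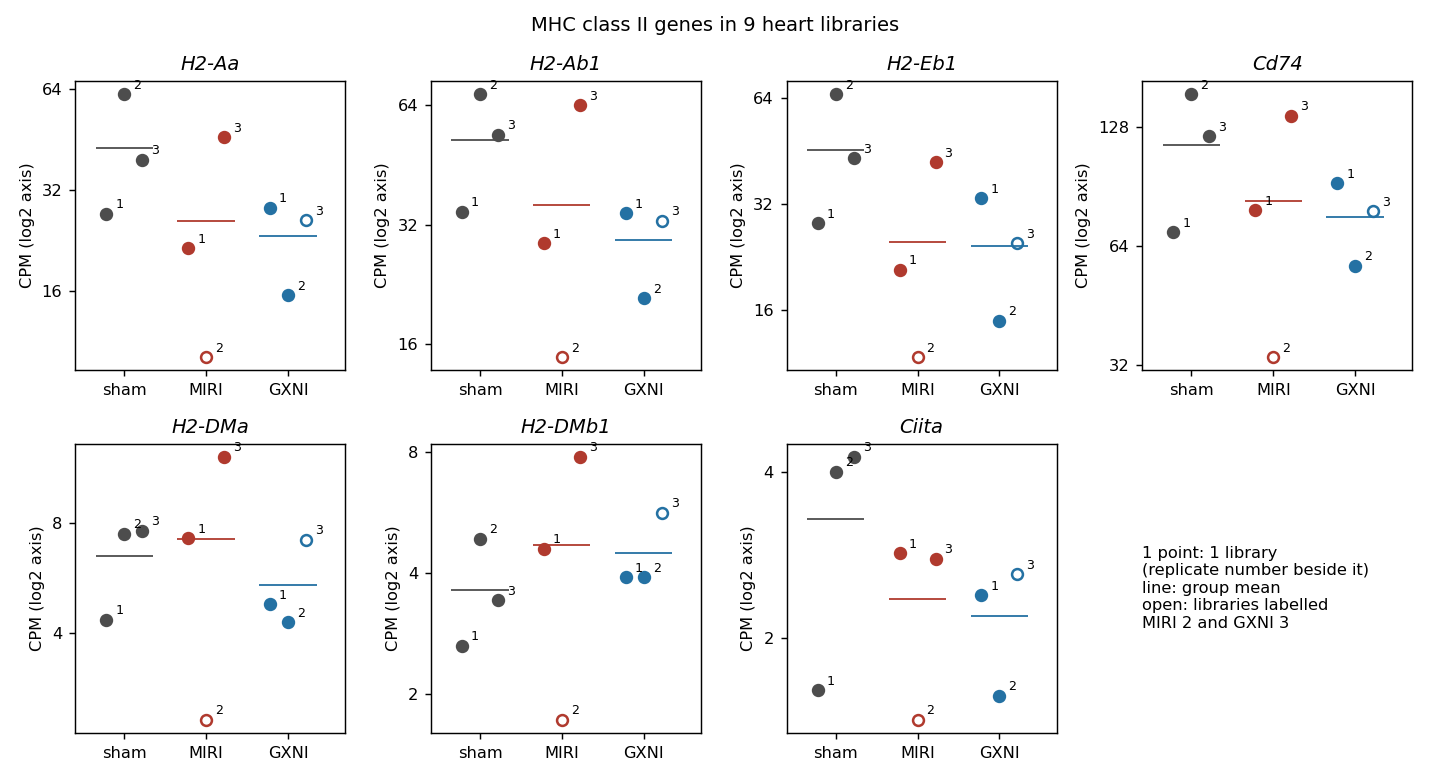
Level of each class II gene in CPM (log2 axis) in the 9 libraries, with 1 point per library, its replicate number beside it and a line at the group mean; open points are the libraries labelled MIRI 2 and GXNI 3. MIRI 2 is the lowest library for all 7 genes, and sham 2 is the highest for H2-Aa, H2-Ab1, H2-Eb1 and Cd74.

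Cd74 was the most abundant member, and its libraries followed nearly the same order as those of the chains. The gene lies on chromosome 18 (ENSMUSG00000024610). It was measured at 69.5, 155.4 and 121.6 CPM in sham 1 to 3, at 79.1, 33.6 and 137.0 CPM in MIRI 1 to 3, and at 92.6, 57.1 and 78.5 CPM in GXNI 1 to 3. MIRI 2 and GXNI 2 were the only ischemia-reperfusion libraries below all sham libraries. Divided by exon length, Cd74 stood at 68.8 ± 25.8 CPM per kb in sham (SD, n = 3), followed by H2-Eb1 at 23.5 ± 9.67, H2-Ab1 at 20.3 ± 6.60, H2-Aa at 11.2 ± 4.60, H2-DMb1 at 2.16 ± 0.670, H2-DMa at 1.88 ± 0.536 and Ciita at 0.346 ± 0.153 CPM per kb. H2-Eb1 and H2-Ab1 did not differ beyond their spread, nor did H2-DMb1 and H2-DMa. With the longest transcript as the length, both pairs changed order, with H2-Ab1 at 43.1 and H2-Eb1 at 27.4 CPM per kb, and H2-DMa at 3.23 and H2-DMb1 at 2.59 CPM per kb.

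The H2-DM genes were, with no difference past the test, higher on average in MIRI than in sham, at 7.24 ± 4.91 against 6.48 ± 1.85 CPM for H2-DMa and 4.69 ± 3.02 against 3.63 ± 1.13 CPM for H2-DMb1 (SD, n = 3). In GXNI they averaged 5.43 ± 1.56 and 4.47 ± 1.003 CPM. H2-DMa (chr17:34119541-34139101, + strand, ENSMUSG00000037649) encodes the alpha chain of the peptide exchange factor. It had 4.35, 7.48 and 7.62 CPM in sham 1 to 3, 7.26, 2.32 and 12.1 CPM in MIRI 1 to 3, and 4.79, 4.29 and 7.20 CPM in GXNI 1 to 3. H2-DMb1 (chr17:34153072-34160230, + strand, ENSMUSG00000079547) encodes a beta chain of the same factor. Its values were 2.63, 4.85 and 3.41 CPM in sham 1 to 3, 4.59, 1.72 and 7.76 CPM in MIRI 1 to 3, and 3.90, 3.89 and 5.63 CPM in GXNI 1 to 3. MIRI 3 was the highest library for both genes, and 5 of the 6 ischemia-reperfusion libraries exceeded the sham median of H2-DMb1, whereas 1 of the 6 exceeded that of H2-DMa. Of the 50-base windows of H2-DMb1 transcripts, 22.7% occurred also in another gene, most often in its near copy H2-DMb2, and 8.43% of those of H2-DMa occurred in another gene, most often in Brd2, whose transcripts overlap it on the opposite strand. Reads of these genes may thus have been lost or assigned to the copy or overlapping gene, and use of strand in the counting is not given in the sources used here.

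Ciita (chr16:10480059-10528418, + strand, ENSMUSG00000022504) was the least abundant member. It was present at 1.61, 4.01 and 4.26 CPM in sham 1 to 3, at 2.86, 1.42 and 2.79 CPM in MIRI 1 to 3, and at 2.40, 1.58 and 2.61 CPM in GXNI 1 to 3, from 24 to 81 counts per library. Sham 2 and sham 3 were the highest libraries, whereas sham 1 lay below 4 of the 6 ischemia-reperfusion libraries. All 6 of those libraries were below the sham median.

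In the edgeR quasi-likelihood test, with a gene called from a 1.5-fold difference upwards if its p before adjustment did not exceed 0.01, none of the 7 members was called in MIRI against sham, where 8.97% of all genes tested were called. Their log2 fold changes (± SE) were -0.71 ± 0.54 for H2-Aa, -0.53 ± 0.52 for H2-Ab1, -0.87 ± 0.49 for H2-Eb1, -0.46 ± 0.51 for Cd74, 0.17 ± 0.55 for H2-DMa, 0.38 ± 0.52 for H2-DMb1 and -0.47 ± 0.44 for Ciita. H2-Eb1 had the smallest of their p-values (edgeR adjusted p = 0.281). No member had a p under 0.05, and DESeq2 called 0. The median member change was -0.47, against -0.0015 over all genes tested. With MIRI 2 and GXNI 3 exchanged, 35.8% of genes were called and again no member, with H2-DMb1 at 0.72 ± 0.28 (edgeR adjusted p = 0.056) and H2-DMa at 0.45 ± 0.28, and the 3 chains between -0.64 and -0.32. With both libraries left out the chains were between -0.53 and -0.16 and no member was called. The direction of each member was the same in these 3 groupings, but not without MIRI 3, where all 7 were negative, with H2-DMa at -0.42 ± 0.52 and H2-DMb1 at -0.19 ± 0.49, and 3 had a p under 0.05. H2-DMa was also negative without sham 1 (-0.054 ± 0.63) and with the replicate block (-0.020 ± 0.55). Over left-out libraries the median member change ran from -1.03 (without MIRI 3) to -0.16 (without MIRI 2), with -0.77 without sham 1 and -0.30 without sham 2.

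GXNI against MIRI gave no call among the members with the deposited labels, in a comparison that called 0.0203% of all genes. All 7 log2 fold changes were negative and small against their errors, from -0.41 ± 0.56 for H2-DMa to -0.019 ± 0.50 for H2-Eb1. No member had a p under 0.05, and DESeq2 called 0. With MIRI 2 and GXNI 3 exchanged, 19.2% of genes were called. H2-DMa was then 0.434 times as high in GXNI as in MIRI (log2 fold change -1.20 ± 0.32, edgeR adjusted p = 0.0341) and was the only member called. H2-DMb1 followed at -0.90 ± 0.35 (edgeR adjusted p = 0.0892), H2-Ab1 at -0.83 ± 0.37, H2-Aa at -0.77 ± 0.40, Cd74 at -0.67 ± 0.37, Ciita at -0.60 ± 0.28 and H2-Eb1 at -0.53 ± 0.41. With both libraries left out, H2-DMa stood at -1.08 ± 0.32 (edgeR adjusted p = 0.206) and no member was called. All 7 were negative in each of these 3 groupings, but the sign turned with other libraries: without MIRI 3 all 7 were positive (median 0.43), and without GXNI 2 there were 5 of 7 positive (median 0.054). With the replicate block 4 of 7 were positive (median 0.071), and none was called in these fits. The MIRI libraries here are also those of MIRI against sham, in the opposite role.

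In GXNI against sham, 4.21% of all genes and none of the members were called. H2-Ab1 (log2 fold change -0.83 ± 0.30, edgeR adjusted p = 0.226) and H2-Aa (-0.87 ± 0.35, edgeR adjusted p = 0.243) were the 2 members with a p under 0.05, and DESeq2 called 0. H2-Eb1 stood at -0.90 ± 0.38, Cd74 at -0.59 ± 0.32, Ciita at -0.58 ± 0.42, H2-DMa at -0.25 ± 0.31 and H2-DMb1 at 0.31 ± 0.30. H2-Ab1 was called without sham 1 (-1.06 ± 0.26) and without the filter on low counts (-0.84 ± 0.26). With the 2 libraries exchanged, 3.72% of genes were called, no member was called, H2-Ab1 stood at -1.16 ± 0.34 (edgeR adjusted p = 0.199) and H2-DMb1 turned to -0.19 ± 0.37. This comparison and MIRI against sham share the sham libraries.

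In the comparison of all 6 ischemia-reperfusion libraries with sham, 8.38% of genes were called and none of the members. H2-Eb1 was 0.539 times as high after ischemia-reperfusion (log2 fold change -0.89 ± 0.39, edgeR adjusted p = 0.162), the only member with a p under 0.05, and DESeq2 called 0. H2-Aa stood at -0.80 ± 0.41, H2-Ab1 at -0.68 ± 0.39, Cd74 at -0.54 ± 0.38, Ciita at -0.53 ± 0.34, H2-DMa at -0.030 ± 0.44 and H2-DMb1 at 0.34 ± 0.40. The median over members was -0.54 and that over all genes tested 0.0076. Without MIRI 3, H2-Ab1 was called (-0.99 ± 0.30). The sign of H2-DMa depended on the libraries, from -0.32 ± 0.37 without MIRI 3 to 0.14 ± 0.35 without MIRI 2. With both MIRI 2 and GXNI 3 left out H2-DMa stood at 0.14 ± 0.39.

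**Figure D2:**
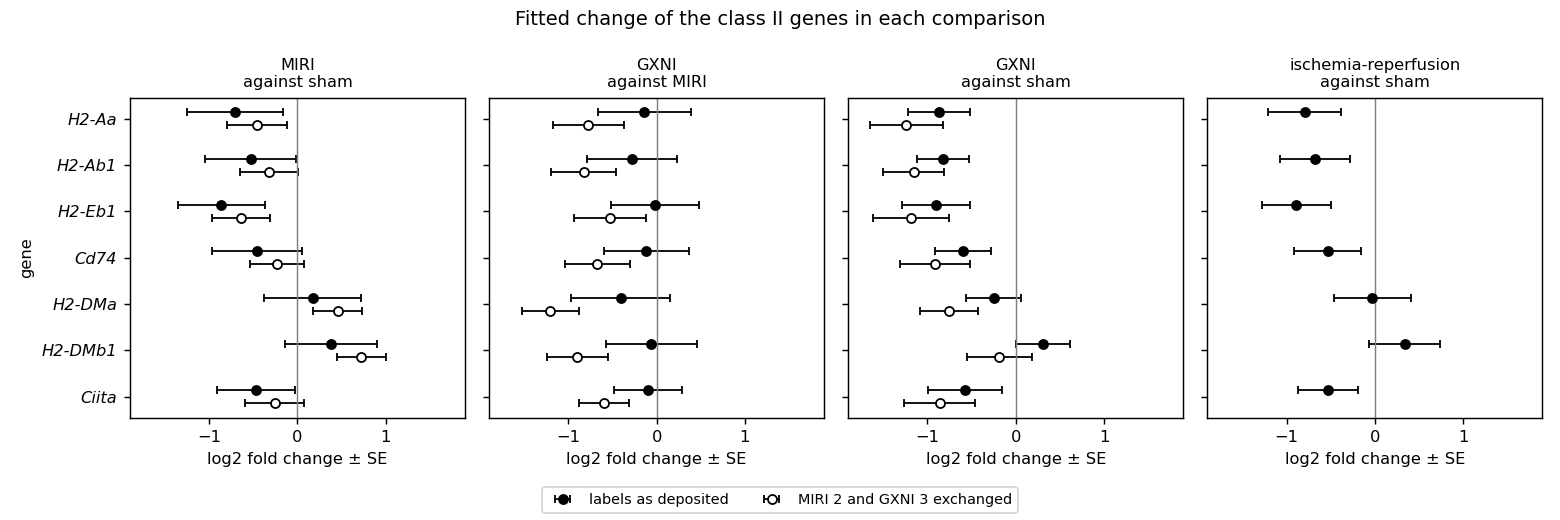
Log2 fold change of each class II gene with its standard error in the 4 comparisons, with the deposited labels (filled) and with MIRI 2 and GXNI 3 exchanged (open; the pooled comparison has no such version). The chains, Cd74 and Ciita lie below 0 in every panel, H2-DMa lies above 0 in MIRI against sham, and H2-DMb1 lies above 0 in MIRI against sham and in the pooled comparison but changes sign with the exchange in GXNI against sham.

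The ratio of 2 members within a library needs no scaling between libraries, and between the chains it was steady. The ratio of the partner chains, H2-Ab1 to H2-Aa, was 0.32 ± 0.16 on the log2 scale in sham and 0.41 ± 0.10 in the 6 ischemia-reperfusion libraries (SD, n = 3 and 6), and that of H2-Eb1 to H2-Aa was 0.095 ± 0.039 and 0.026 ± 0.16. The log2 ratio of H2-DMa to H2-Aa was -2.64, -3.04 and -2.37 in sham 1 to 3, -1.56, -2.13 and -1.92 in MIRI 1 to 3, and -2.56, -1.86 and -1.85 in GXNI 1 to 3. It was 0.70 higher after ischemia-reperfusion (two-sided exact permutation p = 0.0476, adjusted over 6 ratios p = 0.143, smallest possible p = 0.0238), with GXNI 1 inside the sham range. The ratio of Cd74 to H2-Aa was 0.29 higher (exact p = 0.0714, adjusted p = 0.143), as was that of H2-DMb1 to H2-DMa by 0.42 (exact p = 0.0714, adjusted p = 0.143), and that of Ciita to H2-Aa by 0.41 (exact p = 0.286, adjusted p = 0.371). None of the 6 ratios passed an adjusted p of 0.05, and the groups of 3 cannot give a p below 0.1.

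The log2 ratio of H2-DMb1 to H2-Aa was looked at after its values were seen and is given without a test. It was -3.37, -3.67 and -3.53 in sham 1 to 3, -2.22, -2.56 and -2.56 in MIRI 1 to 3, and -2.86, -1.995 and -2.20 in GXNI 1 to 3. All 6 ischemia-reperfusion libraries lay above all 3 sham libraries, by 1.12 on average. The difference was 1.11 without MIRI 2 and GXNI 3, 1.02 with H2-Ab1 and 0.83 with Cd74 in place of H2-Aa, and 1.12 with the counts of H2-DMb1 and H2-DMb2 summed. The groups did not overlap in any of these. The variants are no separate support, since they reuse the same libraries, and H2-Ab1 and Cd74 correlated with H2-Aa at 0.991 and 0.976. How many other gene ratios separate the groups in this way was not counted. Of the 7 levels and the 6 tested ratios, none separated all 6 libraries from sham, except that H2-DMb1 to H2-DMa did so once the counts of H2-DMb2 were added to those of H2-DMb1.

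**Figure D3:**
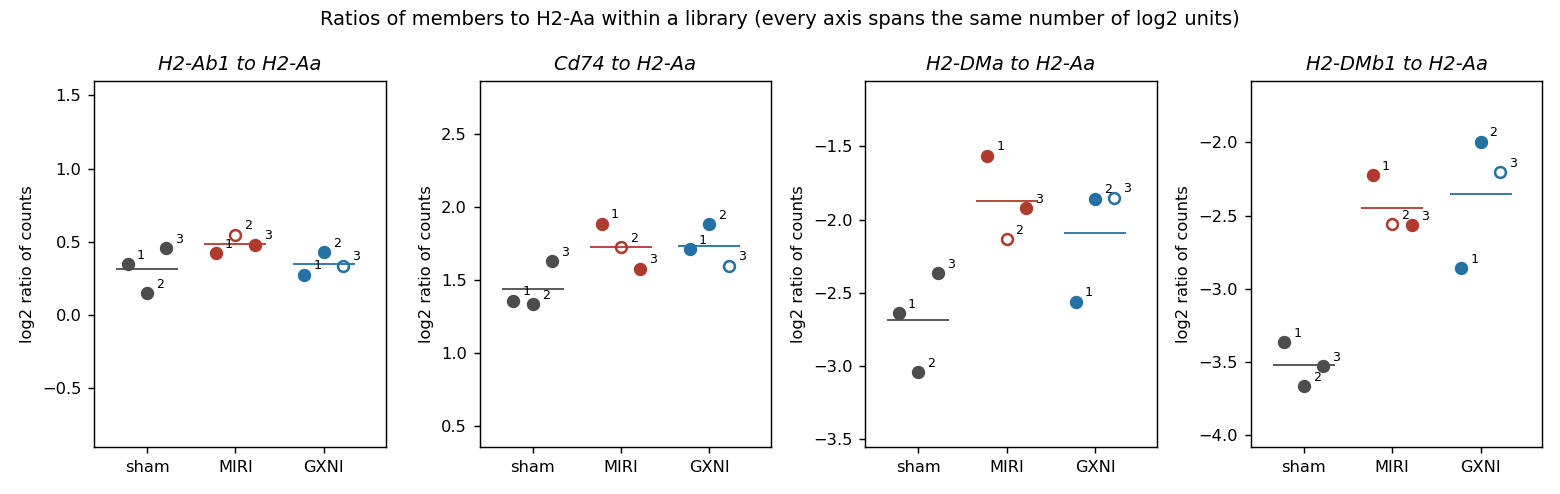
Log2 ratio of the counts of H2-Ab1, Cd74, H2-DMa and H2-DMb1 to those of H2-Aa in each library, with group means as lines and MIRI 2 and GXNI 3 as open points; every axis spans the same number of log2 units. The ratio of H2-DMb1 to H2-Aa lies between -3.67 and -3.37 in sham and between -2.86 and -1.995 in the other libraries.

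Across the 9 libraries, log2 CPM of H2-Aa correlated with that of H2-Ab1 at Pearson r = 0.991, of H2-Eb1 at 0.987 and of Cd74 at 0.976. H2-DMa and H2-DMb1 went with each other at 0.902, Ciita went best with Cd74 at 0.865, and the lowest value was 0.539 between H2-Eb1 and H2-DMb1. These are descriptions over libraries that share group and depth. Among the 10 genes whose pattern was most like the mean of the standardized log2 CPM of the 7 members over the 9 libraries were Nxpe3 (r = 0.932), Casp1 (0.909), the inflammatory caspase, Trbc2 (0.907), a T cell receptor beta constant gene, Rnase6 (0.905), Rbl1 (0.901), the class I gene H2-Q6 (0.896), Evl (0.892) and Ly86 (0.892), the MD-1 partner of the receptor RP105 on B cells and macrophages. H2-Q6 had 589, 1661 and 1134 counts in sham 1 to 3, 1461, 90 and 1266 in MIRI 1 to 3, and 492, 422 and 599 in GXNI 1 to 3. Of these 10 genes, 4 were also among the first 10 by Spearman correlation. Trbc2 had 0 to 18 counts per library, so that its place rests on few reads.

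Around the members, 38 further class II pathway genes in 5 lists were examined, of which 33 were tested in each comparison. With the deposited labels, 0 were called in MIRI against sham (3 with an edgeR p under 0.05, 3 called by DESeq2), 0 in GXNI against MIRI (0 and 0) and 0 in GXNI against sham (3 and 2), and 1 was called, lower, in the pooled comparison with sham (5 and 2). Of the other chains and the DO modulators of H2-DM, H2-DMb2 and H2-Ob passed the filter. H2-DMb2 had 8, 18 and 18 counts in sham 1 to 3, 29, 4 and 46 in MIRI 1 to 3, and 15, 6 and 33 in GXNI 1 to 3. H2-Ob, the beta chain of the H2-DM inhibitor H2-O, had 7, 23 and 5 counts, then 23, 5 and 59, then 13, 8 and 30 in the same order. With MIRI 2 and GXNI 3 exchanged, both were called lower in GXNI against MIRI, at -1.99 ± 0.46 for H2-DMb2 (edgeR adjusted p = 0.0238) and -1.96 ± 0.45 for H2-Ob (edgeR adjusted p = 0.0239), and H2-DMb2 was called higher in MIRI against sham at 1.19 ± 0.36 (edgeR adjusted p = 0.0212). These comparisons share the MIRI libraries, so that the opposite calls of H2-DMb2 are not separate support. H2-Oa and H2-Eb2 had at most 11 counts in a library and were not tested.

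The 7 factors that bind the boxes (Rfx5, Rfxap, Rfxank, Nfya, Nfyb, Nfyc and Creb1) were all tested and none was called in any comparison under any of these 3 groupings. In the pooled comparison their log2 fold changes ran from -0.28 ± 0.11 for Creb1, the only one with an edgeR p under 0.05 (adjusted p = 0.127), to 0.23 ± 0.11 for Nfyb, and DESeq2 called 0. Of 8 genes of processing and turnover, none was called with the deposited labels (0 with an edgeR p under 0.05 and 0 by DESeq2 in each of the 4 comparisons). Ctss, the cathepsin that trims the invariant chain in antigen-presenting cells, had 56.2, 52.3 and 58.7 CPM in sham 1 to 3, 99.0, 21.7 and 115.9 CPM in MIRI 1 to 3, and 49.8, 58.7 and 128.1 CPM in GXNI 1 to 3. The sham hearts were close to each other, whereas MIRI 2 stood far below and MIRI 1, MIRI 3 and GXNI 3 far above them. With MIRI 2 and GXNI 3 exchanged, Ctss, the thiol reductase gene Ifi30 and March1, a ubiquitin ligase that removes class II from the surface, were called higher in MIRI against sham, with log2 fold changes from 0.97 to 1.04, and lower in GXNI against MIRI (-1.39 ± 0.33, -1.10 ± 0.19 and -1.28 ± 0.29). They were 3 of 8 tested, where 35.8% and 19.2% of all genes were called, in comparisons that share the MIRI libraries and give no separate support. With both libraries left out they were also called in both comparisons, but that grouping shares its libraries with the exchanged one. It called 2571 genes higher and 2021 lower of 15207 in MIRI against sham, and 228 and 520 of 14984 in GXNI against MIRI.

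In the route from interferon gamma to Ciita, Irf1, a factor of the Ciita promoter, had 20.9, 60.6 and 58.5 CPM in sham 1 to 3, 21.3, 10.8 and 20.4 CPM in MIRI 1 to 3, and 14.1, 23.4 and 39.1 CPM in GXNI 1 to 3 (pooled log2 fold change -1.12 ± 0.41, edgeR adjusted p = 0.117). It separated sham 2 and sham 3 from sham 1, which lay within the range of the operated hearts, and the same split was seen in Cd274, the PD-L1 gene, at 11.2, 74.8 and 117.7 CPM in sham 1 to 3. Sham 2 and sham 3 were also the sham hearts with more H2-Aa, H2-Ab1, H2-Eb1, Cd74 and Ciita. Ifng itself had 0 counts in all 9 libraries. The part of this split among sham hearts in the differences between groups was not tested.

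**Figure D4:**
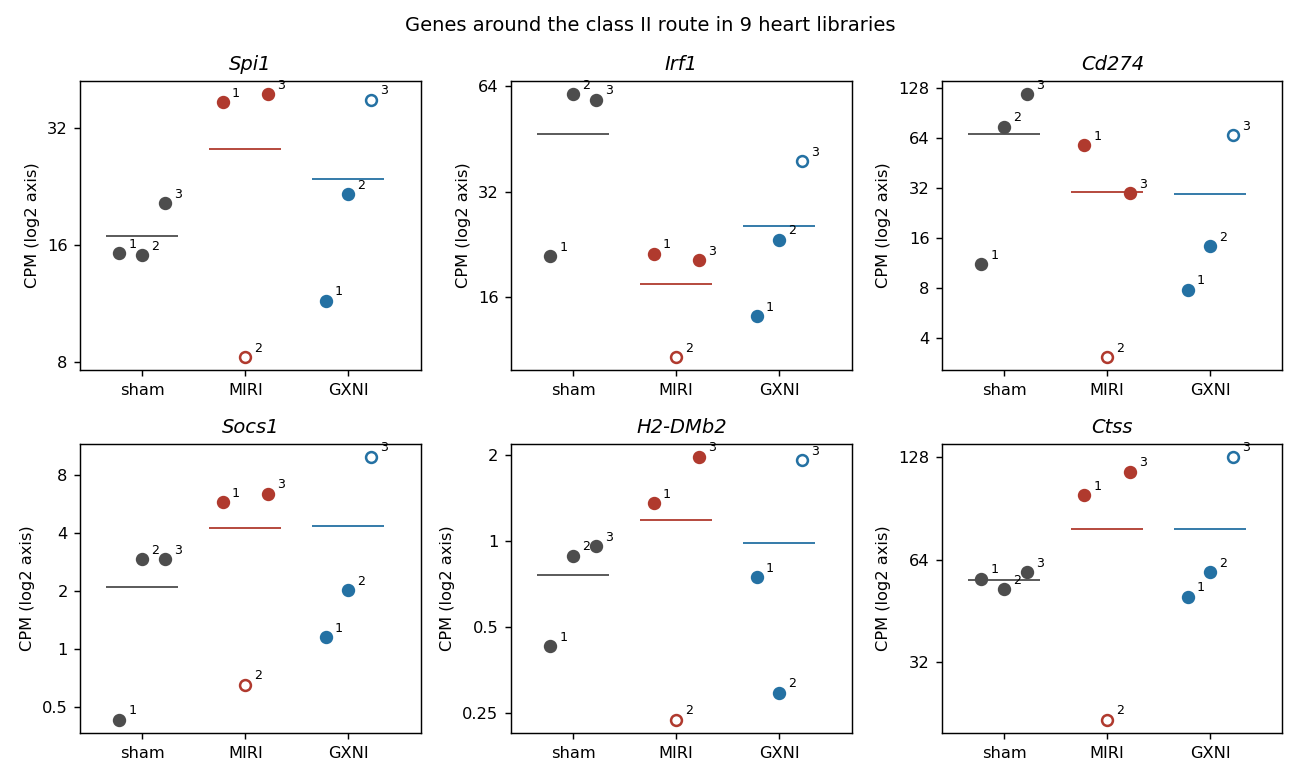
Level in CPM (log2 axis) of Spi1, Irf1, Cd274, Socs1, H2-DMb2 and Ctss in the 9 libraries, drawn as in the plot of the members. Sham 2 and sham 3 lie above all other libraries for Irf1 and Cd274, and the sham libraries lie within 52.3 to 58.7 CPM for Ctss.

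With MIRI 2 and GXNI 3 exchanged, 5 of the 11 genes tested of this route were called higher in MIRI against sham and lower in GXNI against MIRI, namely Jak2, Irf8, Spi1, Socs1 and Prdm1. Both comparisons use the same MIRI libraries in opposite roles, so that opposite calls of a gene are not separate support. In this grouping 35.8% and 19.2% of all genes were called in these comparisons, so that such counts in the first are near the background. Spi1, the PU.1 gene of myeloid cells, stood at 1.17 ± 0.14 and -1.45 ± 0.31, and Socs1, a feedback inhibitor of interferon signalling, at 1.80 ± 0.52 and -2.50 ± 0.41. Cd80 and Cd86, the ligands of CD28 on antigen-presenting cells, were called the same way, at 2.81 ± 0.23 and -2.55 ± 0.31 for Cd80 and 1.17 ± 0.18 and -1.30 ± 0.22 for Cd86. With the deposited labels Cd80 had 44, 50 and 32 counts in sham 1 to 3, 334, 36 and 276 in MIRI 1 to 3, and 37, 77 and 323 in GXNI 1 to 3, and it was not called in any comparison. In that exchanged grouping of MIRI against sham, the 3 chains had a median change of -0.46 and the 5 tested co-stimulation genes one of 0.79, beside -0.0074 over all genes.

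Markers of the cells that can carry class II moved between libraries as follows, and their part in the differences of the members was not tested. The summed level of 9 B cell genes was 6.28, 25.9 and 13.9 CPM in sham 1 to 3, 13.8, 6.71 and 22.6 CPM in MIRI 1 to 3, and 6.69, 9.21 and 16.0 CPM in GXNI 1 to 3. It was thus high in sham 2 and MIRI 3 and low in sham 1 and MIRI 2, as the members were, but also low in GXNI 1. Cd79a, a part of the B cell receptor, had 0 to 80 counts and Ms4a1, the CD20 gene, 0 to 22 counts per library. Of these 9 genes, 1 (Blk, higher) was called in MIRI against sham and in the pooled comparison, and none in the other comparisons with the deposited labels. In the pooled comparison 2 of the 8 tested had an edgeR p under 0.05, and DESeq2 called 2. Over all genes tested, 8.97% were called in MIRI against sham and 8.38% in the pooled comparison. A single call in this list or in those that follow is thus near the background. The list went both ways, since Ighm, the IgM heavy chain gene, stood at -1.53 ± 0.52 in the pooled comparison (edgeR adjusted p = 0.107) without being called. The sum of 10 dendritic cell genes ranged from 31.7 to 39.3 CPM in sham and from 30.2 to 45.9 CPM in the ischemia-reperfusion libraries. Zbtb46 and Mgl2, at 16.5 and 9.73 CPM on average in sham, made up most of it. In MIRI against sham and in the pooled comparison, 1 of the 10 genes (Xcr1, higher) was called. In the pooled comparison Clec9a, a marker of the same dendritic cell subset, stood at -0.58 ± 0.23 (edgeR adjusted p = 0.132) and was not called. Of the 9 tested there, 4 had an edgeR p under 0.05, and DESeq2 called 3. The genes of low level did not follow the sum: Ccr7 averaged 0.191 CPM in sham and 0.933 CPM after ischemia-reperfusion, against 16.5 and 13.9 CPM for Zbtb46. The sum of 8 genes shared by macrophages ranged from 358.7 to 403.5 CPM in sham and from 257.2 to 471.4 CPM after ischemia-reperfusion. In the pooled comparison 1 of them (Cx3cr1, lower) was called, and the median log2 fold change of the list was -0.29. Fcgr1 of this list, which was not called, went the other way in most libraries. It had 149, 211 and 300 counts in sham 1 to 3, 632, 53 and 791 in MIRI 1 to 3, and 305, 529 and 826 in GXNI 1 to 3. Monocyte genes behaved otherwise: their sum of 7 genes was 75.4 to 115.0 CPM in sham and 114.8 to 1070 CPM in the ischemia-reperfusion libraries. In the pooled comparison 4 of the 7 (Chil3, Vcan, Fn1 and Arg1) were called higher, beside 8.38% of all genes called and no member. The sum of 9 neutrophil genes was 29.3 to 57.4 CPM in sham, 679.4, 26.9 and 598.9 CPM in MIRI 1 to 3, and 48.4, 208.0 and 620.7 CPM in GXNI 1 to 3, so that MIRI 2 and GXNI 1 lay below the highest sham library. The T cell list summed to at most 3.56 CPM in any library.

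**Figure D5:**
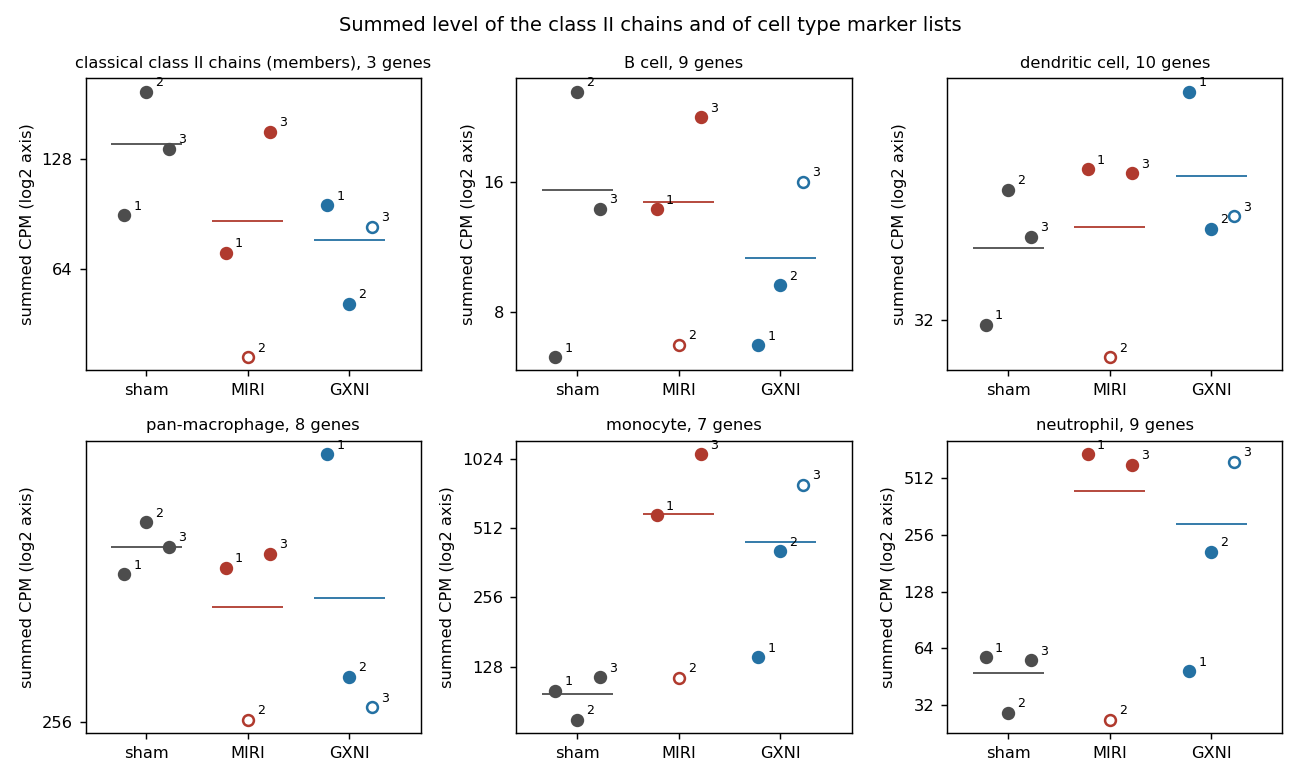
Summed CPM (log2 axis) of the 3 class II chains and of 5 marker lists in each library, with group means as lines and MIRI 2 and GXNI 3 as open points. The monocyte and neutrophil sums of MIRI 1, MIRI 3, GXNI 2 and GXNI 3 lie above every sham library, and the neutrophil sum of MIRI 2 lies below every sham library. The class II chains of MIRI 1, MIRI 2, GXNI 2 and GXNI 3 lie below every sham library, and those of MIRI 3 and GXNI 1 lie within the sham range.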

How the data were processed

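Total RNA from heart tissue was sequenced in 9 libraries, 3 from separate animals in each group. Per the labels and the methods of the study, the authors discarded reads that held adapter or poly-N or were of low quality, mapped those left to the mouse genome (mm10) with HISAT2 and counted them per gene with featureCounts (Subread). The authors deposited raw counts per gene. Versions and strand setting are not given in the sources used here. Of 54532 identifiers, 123 had no symbol.

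Groups were taken from the labels. Counts were tested with edgeR 4.0.16 (glmQLFit and glmQLFTest, R 4.3.3) after TMM scaling and filterByExpr, in the 6 libraries of each pairwise comparison and, for the pooled comparison, in all 9. Genes were called from a 1.5-fold difference upwards if the p before adjustment did not exceed 0.01, and adjusted p-values are Benjamini-Hochberg values over all genes tested. The thresholds follow the study. DESeq2 1.42.0, RLE scaling, no filter, other library sets, an adjusted threshold and left-out libraries were alternatives. Levels are TMM-scaled CPM. Ratios were tested with exact permutation over libraries (SciPy 1.17.1). Floors of 3 counts cover counting error only, whereas SD and SE values include the variation between libraries. Scripts were tested on simulated data.

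All 7 members were named with values in each library. Of the pathway and marker lists, counts are given, with named genes for those called or illustrating a list. The members and lists were chosen with earlier results of these data known. Library pairs all differed beyond sampling noise. The exchange of MIRI 2 and GXNI 3 is not given by the labels; fold changes tabulated for the study, whose values are not used further, could be recomputed only with it. Groups stay as labelled. Gene positions are from GENCODE vM21 (GRCm38), and promoter windows from RefSeq (GRCm38.p6). Some genes of the lists are not reported here.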

Additional observations from a re-analysis of the deposited data

How the results depend on the processing

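No member was called in any of the 4 comparisons, and this held under RLE scaling, DESeq2, the mitochondrial genes left out, all 9 libraries in 1 fit, the replicate block and an adjusted p of 0.05. The exceptions were 1 member called in GXNI against MIRI with MIRI 2 and GXNI 3 exchanged (H2-DMa), 1 in GXNI against sham with no filter on low counts (H2-Ab1), and, over left-out libraries, 0 to 1 in GXNI against sham (H2-Ab1, without sham 1) and 0 to 1 in the pooled comparison (H2-Ab1, without MIRI 3).

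Counts of all genes called moved more. For MIRI against sham, 900 higher and 413 lower became 1491 and 760 with DESeq2, 1603 and 803 with no filter, 535 and 265 with all 9 libraries in 1 fit, 2 and 0 at an adjusted p of 0.05, 2571 and 2021 with MIRI 2 and GXNI 3 left out, and 2848 and 2462 with them exchanged. For GXNI against MIRI, 0 higher and 3 lower became 4 and 7 with DESeq2, 4 and 6 with no filter, 1 and 8 with all 9 libraries, 0 lower at the adjusted threshold, 228 and 520 with both libraries left out, and 1264 and 1575 with them exchanged. For GXNI against sham, 392 and 226 became 994 and 407 with DESeq2, 999 and 426 with no filter, 142 lower with all 9 libraries, and 0 and 0 at the adjusted threshold. In the pooled comparison, 840 and 434 became 1519 and 677 with DESeq2, 656 lower with no filter, and 4 and 5 at the adjusted threshold. Leaving out 1 library at a time gave 340 to 2571 higher and 174 to 2021 lower in MIRI against sham (lowest without sham 2, highest without MIRI 2), 0 to 8 and 0 to 9 in GXNI against MIRI, 83 to 1603 and 90 to 1062 in GXNI against sham (highest without GXNI 1), and 254 to 1466 and 209 to 858 in the pooled comparison (lowest without sham 2, highest without MIRI 2 or GXNI 1).

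Same-numbered libraries did not deviate together throughout (correlations of deviations from -0.445 to 0.701). With 3 libraries in each group these correlations cannot decide whether the numbers pair the animals, which the sources used here do not give. With the replicate block, GXNI against MIRI gave 2 higher and 1 lower, MIRI against sham gave 698 and 367, and no member was called. Uncalled members changed sign in MIRI against sham (H2-DMa, H2-DMb1), GXNI against MIRI and the pooled comparison (H2-DMa) with left-out libraries or the block, as given with those comparisons.

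Per exon length the sham levels of H2-Ab1, H2-DMa and Ciita moved to 43.1, 3.23 and 0.548 CPM per kb with the longest transcript. Of the 10 genes most like the members, 4 were shared under Spearman correlation. The difference in the ratio of H2-DMb1 to H2-Aa between GXNI and MIRI, 0.097, turned to -0.033 with both libraries left out and to -0.14 with them exchanged, and ranged from -0.082 (without GXNI 2) to 0.35 (without GXNI 1) over left-out libraries. The causes were not tested. Over left-out libraries, the pooled ratio differences to H2-Aa ran from 0.52 to 0.86 for H2-DMa and from 1.04 to 1.21 for H2-DMb1. With 24 to 181 counts per library, Ciita and the H2-DM genes have wider counting error than the chains.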
